A study of Mus musculus with 12 samples.

Results

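The genes that encode the subunits of the oxidative phosphorylation complexes were examined in 3 subsets of eosinophils from the mouse small intestine. Members were taken by gene symbol, as the Nduf, Sdh, Uqcr, Cox, and Atp5 families of subunits without pseudogene symbols, together with the protein coding genes of the mitochondrial DNA. The rule matched 85 of the 36047 genes in the table by symbol. The 13 mitochondrially encoded genes carry other symbols there (ND1, COX1, and CYTB, for example) and were matched by Ensembl identifier, which gave 98 members in all. Of the 85 nuclear members, 36 belong to complex I, 4 to complex II, 8 to complex III, 20 to complex IV, and 17 to complex V. The 36 include Ndufb4c, which is annotated as a processed pseudogene. The mitochondrially encoded members comprise 7 genes of complex I, 1 of complex III, 3 of complex IV, and 2 of complex V. An average normalized count above 10 was reached by 91 members, 78 nuclear and 13 mitochondrially encoded, and these were tested among 15249 genes.

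Oxidative phosphorylation takes place in the inner mitochondrial membrane. Complexes I and II pass electrons from NADH and succinate to ubiquinone, complex III passes them on to cytochrome c, and complex IV reduces oxygen. Complexes I, III, and IV pump protons, and complex V, the ATP synthase, uses the proton gradient to make ATP. Most subunits are encoded in the nucleus and imported, while the hydrophobic core subunits of complexes I, III, IV, and V are encoded in the mitochondrial DNA, which is transcribed from both strands as long precursors. Mature eosinophils are granulocytes that no longer divide.

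The study sorted eosinophils (CD45+ CD11b+ SiglecF+ MHCII− Ly6G−) from the lamina propria of the proximal small intestine of wild type C57BL/6J mice, labelled as female, on standard chow. The 3 subsets were α4β7+ eosinophils, which carry the gut-homing integrin and were described as approximately younger, α4β7− CD22− eosinophils, described as intermediate, and CD22+ eosinophils, which carry the lectin CD22 and were described as older. Each subset was represented by 4 libraries of total RNA, each from 2 pooled mice, so that a p-value here measures the spread between pools. The comparisons asked how expression differed between the subsets along this order.

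The normalized counts of a library summed to between 14286474 and 16915755. The ranges were 15783607 to 16915755 for the α4β7+ libraries, 15011473 to 15740374 for the α4β7− CD22− libraries, and 14286474 to 14758267 for the CD22+ libraries. All 7 eosinophil marker genes examined (Prg2, Epx, Siglecf, Ccr3, Il5ra, Alox15, and Ear6) were present, with summed levels of 60382 to 74344, 41883 to 47640, and 30231 to 32339 normalized counts, the subsets being given in that order. Summed markers of macrophages and dendritic cells ranged from 36981 to 40621, 46866 to 47659, and 44697 to 49600, with Itgax highest. Itgax encodes CD11c, a surface marker that the study reported to differ between these eosinophil subsets, so this sum is not specific to other cells. Summed markers of plasma and B cells (8859 to 29723 over all libraries) and of epithelial cells (981 to 6216) overlapped between the subsets, and the 5 neutrophil markers summed to at most 62.3, with Elane at 0 in every library. Markers of T cells summed to 793 to 1325, 512 to 755, and 728 to 1098. Those of stromal and endothelial cells summed to 10265 to 11702, 12299.9 to 13613, and 11261 to 11931, with Pecam1 highest. Markers of Paneth, mast, and erythroid cells summed to at most 1092, 178, and 449. In bulk RNA, a smaller number of cells of a type cannot be told apart from less RNA per cell, and the part of these markers in the results below was not tested.

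Some libraries were lowest of their subset for most members. CD22+ replicate 2 was the lowest of the 4 CD22+ libraries for 60 of the 78 nuclear members, and α4β7− CD22− replicate 3 was the lowest of its subset for 55 of 78, followed by α4β7+ replicate 4 for 42 of 78. For the mitochondrially encoded members, CD22+ replicate 1 was the lowest of its subset for 12 of 13 and α4β7− CD22− replicate 1 for 9 of 13. The medians over all nuclear or mitochondrially encoded members, the counts of called members, and single calls are also given with single libraries left out. Other results, such as medians by complex, counts on the adjusted p alone or without overlap, and related lists, are given with all libraries only.

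The mitochondrially encoded genes had the higher median level. Per kilobase of transcript, averaged over the 12 libraries, they had a median level of 9615 normalized counts, from 2051 for mt-Nd6, the only one of the 13 that lies on the other strand, to 22776 for mt-Co1 as deposited. With near-identical nuclear copies summed in, as described further on, the highest was mt-Atp6 at 28110.5, against 25044 for mt-Co1, and the median was 11773. The 78 nuclear members tested had a median of 648, which made the mitochondrial median as deposited 14.8-fold higher. Among nuclear members, the genes of complexes IV and V had the higher medians per kilobase, 1024 and 845, and those of complexes I, II, and III had 501, 453, and 531. The highest nuclear member per kilobase was Cox6c of complex IV (3225), above the level of mt-Nd6. The highest of the other complexes were Atp5mpl of complex V (2079), Uqcrh, the hinge subunit of complex III (1610), Ndufa6 of complex I (1293), and Sdha, the flavoprotein of complex II (786). The gene levels are plotted per kilobase by complex.

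**Figure D1:**
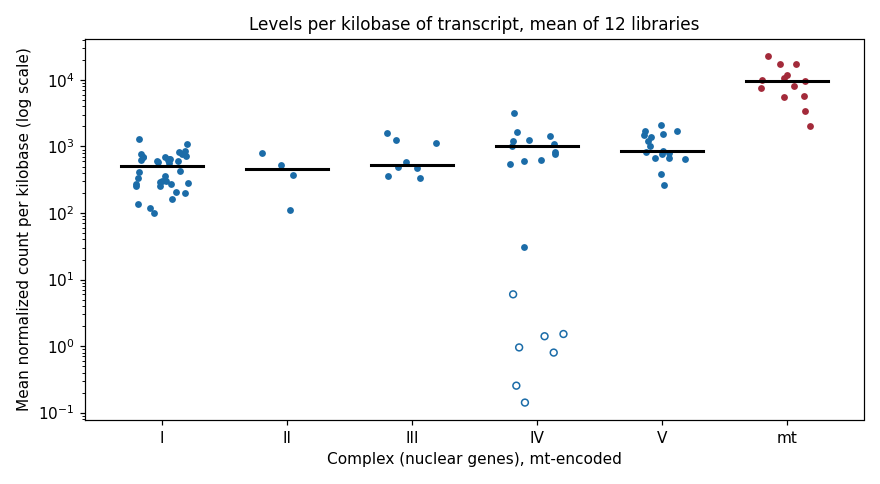
Mean normalized count per kilobase of transcript over 12 libraries (log axis) for each nuclear member of complexes I to V (blue) and each mitochondrially encoded member (red). Filled points are genes with an average normalized count above 10, open points the 7 genes below it, and bars are medians of the filled points. The mitochondrially encoded genes sit at a median of 9615 against 648 for the nuclear genes, and all 7 open points belong to complex IV.

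The low genes were the tissue-restricted isoforms. The 7 members that did not reach an average of 10 were Cox4i2, Cox6a2, Cox6b2, Cox7b2, Cox8b, Cox8c, and Ndufa4l2, isoforms that are known from other tissues such as muscle, testis, or lung, or from hypoxic cells. Their highest value in any library was 7.80 normalized counts, for Cox6b2 in CD22+ replicate 3. The ubiquitous partners Cox4i1, Cox6a1, Cox6b1, Cox7b, Cox8a, and Ndufa4 averaged 1243, 681, 633, 610.4, 785, and 479 normalized counts. Cox7a1, the heart and muscle isoform of subunit 7a, reached an average of 12.1 with values from 5.85 to 21.8, while Cox7a2 averaged 408 and Cox7a2l, which acts in the assembly of respiratory supercomplexes, averaged 1155. Of the genes Atp5g1, Atp5g2, and Atp5g3, which encode the same mature c subunit of the ATP synthase, Atp5g3 was highest per kilobase at 819, against 391 for Atp5g1 and 268 for Atp5g2. With near-identical pseudogenes summed in, Atp5g1 stood at 448 and Atp5g2 at 703, so that the order of these 2 turned. Each of the restricted isoforms stayed below its ubiquitous partner in every library.

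Most subunit transcripts had their highest mean in the α4β7+ subset, and in both comparisons with it the median difference was larger for the mitochondrially encoded members than for the nuclear ones on the deposited scale. In α4β7− CD22− eosinophils, the median log2 fold change over α4β7+ was −0.18 for the nuclear members and −0.51 for the mitochondrially encoded members, that is, changes of −12.0% and −29.7%, while the median of all genes tested was 0.00. In CD22+ eosinophils the medians over α4β7+ were −0.32 and −0.46, or −19.7% and −27.3%, against 0.01 for all genes. With quantile normalization the order in CD22+ eosinophils turned, the medians being −0.31 for nuclear and −0.29 for mitochondrially encoded members. Estimates were below 0 for 79 of the 91 members in the first comparison and for 83 in the second, where 49.6% and 48.5% of all genes tested lay below 0. Between CD22+ and α4β7− CD22− eosinophils the medians were −0.12 for nuclear and −0.06 for mitochondrially encoded members, with 73 of 91 estimates below 0 (50.3% of all genes). That mitochondrial median was 0.08 without CD22+ replicate 1 and 0.04 without α4β7− CD22− replicate 3. It was 0.06 with quantile normalization and 0.00 after rescaling by the total without the mitochondrially encoded genes. Its direction was therefore not stable. The nuclear median was −0.03 without CD22+ replicate 2 and −0.19 without α4β7− CD22− replicate 3. The subsets compared with α4β7+ share those 4 libraries, so the first and second comparisons are not independent of each other.

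Few members passed the test one by one. For a call, limma had to give an adjusted p no higher than 0.05 (Benjamini-Hochberg, over all genes tested) and the fold change had to reach 1.5. Where a log2 fold change is followed by ±, the second value is its standard error. Between α4β7− CD22− and α4β7+ eosinophils 2 members fell and none rose, where 4.35% of all genes tested were called lower and 3.7% higher (8.05% in all). Between CD22+ and α4β7+ eosinophils 8 members fell and none rose, against a background of 6.39% lower and 5.6% higher (12% in all). No member was called between CD22+ and α4β7− CD22− eosinophils, where 0.603% of all genes were called, 0.393% lower and 0.21% higher. At an unadjusted p under 0.05, 30 members were lower and 1 higher in the first comparison (13.5% and 13.6% of all genes), 48 lower and 1 higher in the second (15.9% and 16.1%), and 4 lower and 0 higher in the third (6.02% and 3.65%). Named after their values were seen, the 4 were Ndufa6, Ndufa7, Ndufb3, and Ndufb4c of complex I, and the single higher members were Ndufb4 and Ndufa10.

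These counts depended on the threshold for the fold change. On the adjusted p alone, 10 members were lower and none higher in α4β7− CD22− eosinophils, where 7.73% of all genes were lower and 7.13% higher by this rule. In CD22+ eosinophils 29 were lower and 1 higher, 31.9% of the members being lower against 11.1% of all genes, while 10% of all genes were higher. Between CD22+ and α4β7− CD22− eosinophils none passed, against 0.82% of all genes lower and 0.256% higher. Libraries did not overlap between the subsets, with the α4β7+ libraries above, for 22 members in the first comparison, or 24.2% against 9.8% of all genes (8.96% lay the other way), and for 28 in the second, or 30.8% against 11.8%, while 1 member and 11% of all genes lay the other way. In the third comparison 1 member, Ndufa7, was lower in every CD22+ library, or 1.1% against 3.72%, and none was higher, against 2.66%.

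Single libraries moved the counts. The count of 2 was 6 without α4β7− CD22− replicate 3, 4 without α4β7+ replicate 1, 1 without α4β7− CD22− replicate 1, and 0 without α4β7− CD22− replicate 2. Without α4β7+ replicate 3 it was 1, Ndufb4, which was then called higher. Of all genes, 1129, 1178, 1131, 1124, and 1166 were called in these fits, in the order given, against 1228 of 15249 with all libraries. The count of 8 was 4 without CD22+ replicate 2, 13 without CD22+ replicate 4, and 14 without CD22+ replicate 3, all lower. Of all genes, 1677, 1794, and 1825 were called in these fits, higher or lower, against 1829 with all libraries. Without CD22+ replicate 2 the median of the nuclear members over α4β7+ was −0.21 in place of −0.32, and without α4β7− CD22− replicate 3 the median in that subset was −0.14 in place of −0.18. The mitochondrial median over α4β7+ was −0.34 without CD22+ replicate 1 in place of −0.46, and in the other subset it was −0.38 without α4β7− CD22− replicate 1 and −0.42 without α4β7+ replicate 4, in place of −0.51.

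The scale mattered as well, since the library totals were lower in the later subsets. When each library was rescaled by its total without the mitochondrially encoded genes, the median of all genes over α4β7+ moved to 0.09 for the α4β7− CD22− subset and to 0.17 for the CD22+ subset. The medians over α4β7+ were then −0.09 and −0.16 for the nuclear members, and −0.42 and −0.30 for the mitochondrially encoded ones. Relative to that shift, the nuclear medians were −0.19 and −0.33 and the mitochondrial medians −0.51 and −0.47, as on the deposited scale. However, no member was then called in the first comparison, and in the second mt-Co1 was called lower and Ndufa10 higher. Of all genes, 1306 and 2188 were called in these comparisons.

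**Figure D2:**
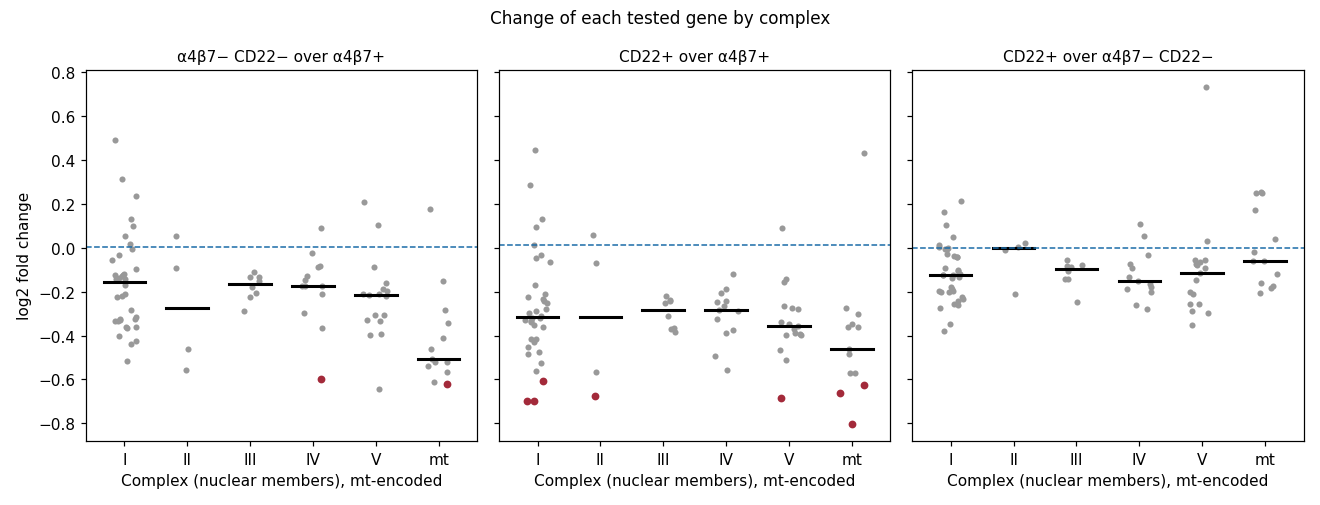
Log2 fold change of each of the 91 members tested, by complex for the nuclear members and together for the 13 mitochondrially encoded (mt) members, in 3 comparisons. Red points are called, grey points are not, black bars are medians, and the dashed line is the median of all genes tested. The mitochondrial median lies lowest in both comparisons with α4β7+ (−0.51 and −0.46), and no point is called between CD22+ and α4β7− CD22−.

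**Figure D3:**
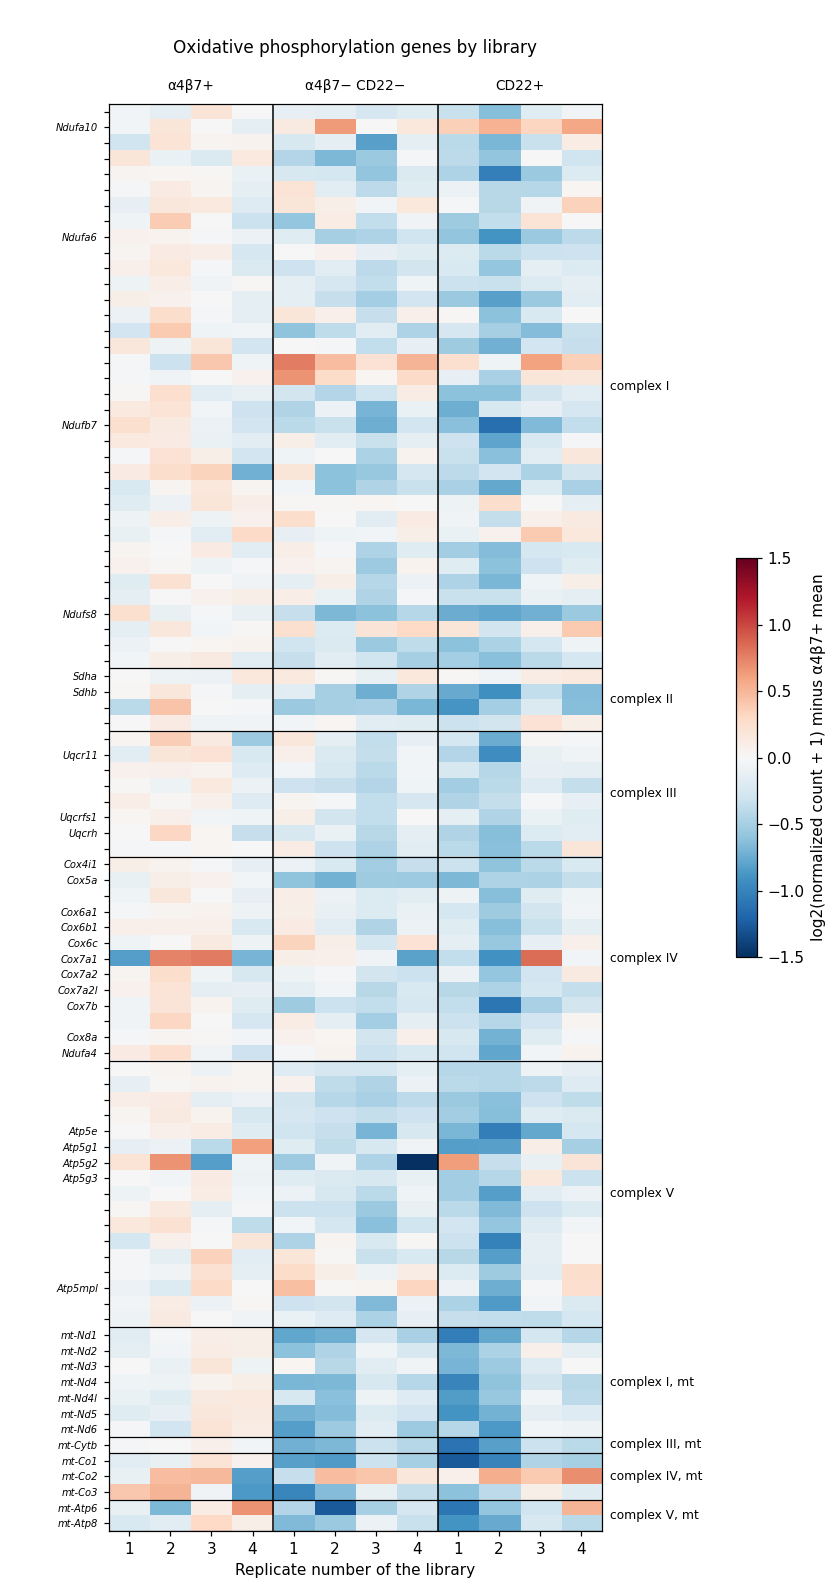
Heat map of log2(normalized count + 1) minus the mean of the 4 α4β7+ libraries for the 91 members tested (rows, by complex, the mitochondrially encoded genes last) in the 12 libraries (columns). Symbols are given for the members chosen by the rule for named genes. The color scale is limited to 1.5 in each direction. CD22+ replicate 2 and α4β7− CD22− replicate 3 are the bluest columns of their subsets among the nuclear members, and replicates 1 and 2 of both subsets are the bluest among the mitochondrially encoded ones.

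In complex I, which oxidizes NADH, 3 of the 36 nuclear members fell in CD22+ eosinophils and none was called in α4β7− CD22− eosinophils, where 6.39% and 4.35% of all genes were called lower. The medians of complex I over α4β7+ were −0.32 and −0.16. Ndufs8, a core subunit that holds iron-sulfur clusters, had normalized counts of 457, 357, 384, and 358 in the α4β7+ libraries, 303, 242, 253, and 288 in the α4β7− CD22− libraries, and 231, 226, 235, and 262 in the CD22+ libraries. Every library of both later subsets lay below every α4β7+ library. In CD22+ over α4β7+ eosinophils Ndufs8 fell by 38.3% (−0.70 ± 0.122 on the log2 scale, adjusted p = 0.000718), a call kept in all 12 fits that each left out 1 library. The estimate in α4β7− CD22− eosinophils was −0.52 (adjusted p = 0.00992), short of the fold change required.

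The other called genes of complex I encode accessory subunits of the membrane arm and the arm junction. Ndufb7 had 1002, 929.8, 802, and 698 in the α4β7+ libraries, 643, 674, 513, and 697 in the α4β7− CD22− libraries, and 552, 387, 535, and 656 in the CD22+ libraries. The CD22+ libraries lay below the α4β7+ libraries, with replicate 2 the lowest (−0.70 ± 0.159 on the log2 scale, adjusted p = 0.00533). Ndufa6 had 978, 969, 925, and 878 in the α4β7+ libraries, 824, 662, 678, and 759.6 in the α4β7− CD22− libraries, and 624, 501, 637, and 715 in the CD22+ libraries. All 8 libraries of the later subsets were below the 4 α4β7+ libraries, and Ndufa6 fell by 34.4% in CD22+ eosinophils (−0.61 ± 0.111 on the log2 scale, adjusted p = 0.00103). The highest estimate of the complex in α4β7− CD22− eosinophils was 0.49 for Ndufb4 (adjusted p = 0.111), which shares its sequence with Ndufb4c, an annotated processed pseudogene that the rule also matched and that was estimated at 0.31 (adjusted p = 0.242). Neither Ndufb7 nor Ndufa6 was called without CD22+ replicate 2, and Ndufa6 was not called after rescaling by the 75th percentile or with quantile normalization.

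Ndufa10, another accessory subunit, lay the other way. It had 998, 1162, 1025, and 924 in the α4β7+ libraries, 1128, 1591, 1031, and 1139 in the α4β7− CD22− libraries, and 1311, 1470.0, 1278, and 1534 in the CD22+ libraries. Every CD22+ library exceeded every α4β7+ library, and the estimate was 0.45 (standard error 0.124 and adjusted p = 0.0183), past the threshold on p but short of a fold change of 1.5. It was the only member above 0 on the adjusted p alone in either comparison with α4β7+.

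The 29 members counted as accessory subunits of complex I, with the pseudogene Ndufb4c among them, had medians of −0.32 in CD22+ and −0.21 in α4β7− CD22− eosinophils over α4β7+. Of the nuclear core subunits beside Ndufs8, named after their values were seen, the CD22+ estimates were −0.35 for Ndufv2, −0.23 for Ndufs7, 0.01 for Ndufs1, 0.09 for Ndufv1, and 0.13 for Ndufs3. None of these 5 passed the test, the lowest adjusted p being 0.0525 for Ndufv2. Ndufs1, which encodes the largest subunit of the complex, averaged 876 normalized counts and ranged from 763 to 980.4 in α4β7+ and from 785 to 1041 in CD22+ eosinophils.

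Complex II, succinate dehydrogenase, is encoded by 4 nuclear genes, whose estimates in CD22+ over α4β7+ eosinophils ranged from −0.67 to 0.06. Sdhb, its iron-sulfur subunit, had 782, 867, 756, and 697 in the α4β7+ libraries, 692, 549, 465, and 563 in the α4β7− CD22− libraries, and 457, 409, 598, and 493 in the CD22+ libraries. Every library of the later subsets was below the lowest α4β7+ library, and Sdhb fell by 37.3% in CD22+ eosinophils (−0.67 ± 0.136 on the log2 scale, adjusted p = 0.0022), a call kept in all 12 fits with 1 library left out. Sdha, the flavoprotein that binds succinate, had 2221, 2106, 2092, and 2468 in the α4β7+ libraries, 2459.8, 2248, 2048, and 2479.8 in the α4β7− CD22− libraries, and 2248, 2139, 2388, and 2459.9 in the CD22+ libraries. These libraries overlapped throughout, with estimates of 0.05 and 0.06 over α4β7+ (adjusted p = 0.736 and 0.702). Of the membrane anchors, Sdhc was estimated at −0.56 in both subsets (adjusted p = 0.0389 and 0.0274, not called) and Sdhd at −0.09 and −0.07 (adjusted p = 0.701 and 0.754). The difference between Sdha and Sdhb was not tested.

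Complex III had the narrowest range. All 8 nuclear members had estimates below 0 in the comparisons with α4β7+, with medians of −0.17 and −0.28, and none was called. In CD22+ eosinophils the estimates ran from −0.38 for Uqcr11 (adjusted p = 0.182), a small subunit, to −0.22 for Uqcrfs1, the Rieske iron-sulfur protein (adjusted p = 0.229). Uqcrh had 993, 1236, 1016, and 783 in the α4β7+ libraries, 843, 926, 743, and 907 in the α4β7− CD22− libraries, and 727, 636, 862, and 892 in the CD22+ libraries, and its libraries overlapped between the subsets. Uqcrc1, a core subunit named after its values were seen, was the only nuclear member of the complex lower on the adjusted p alone, at −0.37 in CD22+ eosinophils (adjusted p = 0.0219).

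Of the 13 nuclear members of complex IV tested, all had estimates below 0 in CD22+ over α4β7+ eosinophils (median −0.28), and none was called. In α4β7− CD22− eosinophils the median was −0.17 and Cox5a, a matrix-side subunit, fell. Cox5a had 414, 473, 468, and 431 in the α4β7+ libraries, 293, 273, 307, and 306 in the α4β7− CD22− libraries, and 280.0, 323, 320.0, and 348 in the CD22+ libraries. All 8 libraries of the later subsets were below the lowest α4β7+ library of 414. Its log2 fold change in α4β7− CD22− eosinophils was −0.60 ± 0.105 with adjusted p = 0.0012. For CD22+ the estimate of −0.49 was short of the fold change required (adjusted p = 0.00328). Cox5a was near the threshold of 1.5-fold and was not called without α4β7+ replicate 2, α4β7+ replicate 3, or α4β7− CD22− replicate 2, nor with a pseudocount of 10 or rescaling by the 75th percentile.

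Cox7b had the lowest nuclear estimate of complex IV in CD22+ eosinophils, −0.56 (adjusted p = 0.0167), with no overlap between the libraries, and Cox4i1, the regulatory subunit 4, and Cox7a2l stood at −0.39 and −0.38 (adjusted p = 0.0141 and 0.0138), also without overlap. Cox6c, the most abundant nuclear member per kilobase, had estimates of 0.09 in α4β7− CD22− and −0.19 in CD22+ over α4β7+, and its libraries overlapped (adjusted p = 0.734 and 0.391). Estimates for Cox6a1, Cox6b1, Cox7a2, Cox8a, and Ndufa4 in CD22+ over α4β7+ lay between −0.33 and −0.21, with adjusted p-values from 0.0724 to 0.397.

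In complex V, 1 of the 17 nuclear members fell in CD22+ eosinophils and none was called in α4β7− CD22−, where 6.39% and 4.35% of all genes were called lower, and the medians over α4β7+ were −0.36 and −0.21. Atp5e, the epsilon subunit of the central stalk, had 823, 862, 884, and 721 in the α4β7+ libraries, 668, 643, 503, and 695 in the α4β7− CD22− libraries, and 509.8, 399, 482, and 684 in the CD22+ libraries. The libraries of both later subsets were below the α4β7+ libraries, and CD22+ replicate 2 was the lowest. The estimate for CD22+ over α4β7+ was −0.69 ± 0.149 (adjusted p = 0.00388), and it was not called without CD22+ replicate 2. On the adjusted p alone 7 of the 17 were lower, where 11.1% of all genes were, among them Atp5b, the catalytic beta subunit, at −0.36 (adjusted p = 0.0243), and Atp5c1, the gamma subunit, at −0.47 (adjusted p = 0.00194), both named after their values were seen. Atp5mpl, the most abundant per kilobase, was estimated at 0.21 and −0.14 in the 2 later subsets (adjusted p = 0.507 and 0.639).

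Promoters of 3 of the 5 nuclear genes called in CD22+ eosinophils are shown beside that of Ndufa10, those of Ndufs8 and Sdhb because their calls were kept with any 1 library left out and that of Ndufa6 because it alone of the 5 held the NRF1 letters. The letters of 3 motifs that are known from such genes were searched on both strands in windows from 250 bases before to 50 bases after the start site, taken from RefSeq with build GRCm38.p6. Windows were given for 68 of the 85 nuclear members (73 windows). The NRF1 motif (the letters GCGC and TGCGC with any 1 base between them) was present in 24.7% of the members' windows and in 4.6% of all 32851 windows, the ETS motif CCGGAAG in 23.3% and 8.86%, and the YY1 motif AAGATGGC in 13.7% and 2.75%. Each window printed holds at most 1 of the 3 motifs, so that no matches overlap there. Of the 5 nuclear genes called in CD22+ eosinophils, 4 windows held the ETS letters (Ndufb7, Ndufs8, Sdhb, and Atp5e) and 1 the NRF1 letters (Ndufa6). The window of Ndufa10, the member with the highest estimate in CD22+ eosinophils, held none of the 3, which says only that these letters are not in this window. Capitals mark the motif on either strand:
Ndufa6, chr15:82354242-82354541, minus strand: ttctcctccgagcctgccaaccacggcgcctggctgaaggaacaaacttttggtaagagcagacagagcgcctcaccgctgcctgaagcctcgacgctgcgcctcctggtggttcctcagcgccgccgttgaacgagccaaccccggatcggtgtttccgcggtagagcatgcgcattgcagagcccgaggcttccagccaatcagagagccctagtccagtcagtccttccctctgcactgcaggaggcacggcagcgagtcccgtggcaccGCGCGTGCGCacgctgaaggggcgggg
Ndufs8, chr19:3912725-3913024, minus strand: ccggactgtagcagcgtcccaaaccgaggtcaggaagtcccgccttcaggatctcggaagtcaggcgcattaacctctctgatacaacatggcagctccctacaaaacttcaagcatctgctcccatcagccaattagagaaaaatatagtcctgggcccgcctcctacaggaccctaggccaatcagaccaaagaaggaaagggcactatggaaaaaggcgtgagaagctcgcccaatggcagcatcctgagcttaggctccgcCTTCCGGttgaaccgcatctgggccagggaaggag
Sdhb, chr4:140961021-140961320, plus strand: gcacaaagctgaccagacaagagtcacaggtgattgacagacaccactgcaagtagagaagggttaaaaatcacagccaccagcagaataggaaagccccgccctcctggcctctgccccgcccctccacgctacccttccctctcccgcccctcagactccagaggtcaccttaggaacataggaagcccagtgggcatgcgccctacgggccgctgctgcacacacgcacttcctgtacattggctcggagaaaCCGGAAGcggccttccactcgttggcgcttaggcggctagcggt
Ndufa10, chr1:92473709-92474008, minus strand: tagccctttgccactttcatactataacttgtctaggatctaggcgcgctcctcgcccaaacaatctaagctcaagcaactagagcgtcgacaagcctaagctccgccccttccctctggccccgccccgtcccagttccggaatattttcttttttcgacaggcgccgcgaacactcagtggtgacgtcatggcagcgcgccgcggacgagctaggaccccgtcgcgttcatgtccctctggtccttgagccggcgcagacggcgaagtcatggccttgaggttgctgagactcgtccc

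Members with and without these letters had similar medians, and the difference was not tested. In CD22+ over α4β7+ eosinophils the 17 genes tested with the ETS letters had a median of −0.36 and the 48 without −0.32. For NRF1 the medians were −0.29 for 17 genes and −0.34 for 48, and for YY1 −0.31 for 10 genes and −0.33 for 55. A match of letters is a description of the window and not a site of binding.

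Among the mitochondrially encoded members, mt-Co1, mt-Cytb, and mt-Nd1 fell. mt-Co1 (chrM:5328-6872 of GRCm38), the catalytic subunit of complex IV, had 42037, 43487, 53824, and 49089.6 in the α4β7+ libraries, 26729.5, 25961, 37541, and 33116 in the α4β7− CD22− libraries, and 19534, 23445, 34419, and 33080.3 in the CD22+ libraries. The α4β7+ libraries lay above all others, and in all 3 subsets replicates 3 and 4 exceeded replicates 1 and 2. mt-Co1 fell by 35% in α4β7− CD22− (−0.62 ± 0.167 on the log2 scale, adjusted p = 0.0213) and fell by 42.7% in CD22+ eosinophils (−0.80 ± 0.167 on the log2 scale, adjusted p = 0.00281). The first of these calls was lost without either α4β7+ replicate 3 or 4 or α4β7− CD22− replicate 1 or 2, the second in none of the 12 fits with 1 library left out, and both were lost with quantile normalization.

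mt-Cytb, the cytochrome b of complex III, had 25126, 25714, 27191, and 24906 in the α4β7+ libraries, 15596, 16061, 20574, and 19053 in the α4β7− CD22− libraries, and 11959.6, 14676, 20541, and 19499 in the CD22+ libraries. No library of the later subsets reached the lowest α4β7+ library, and mt-Cytb fell by 36.7% in CD22+ eosinophils (−0.66 ± 0.143 on the log2 scale, adjusted p = 0.0037). mt-Nd1, a core subunit of complex I, had 12907, 14102, 15462, and 15250.0 in the α4β7+ libraries, 8396, 8628, 12061, and 10282 in the α4β7− CD22− libraries, and 7029.9, 8456, 11963, and 10659.9 in the CD22+ libraries and fell by 35.2% (−0.63 ± 0.149 on the log2 scale, adjusted p = 0.00716). Both calls were lost without CD22+ replicate 1 and with quantile normalization, and that of mt-Nd1 also without CD22+ replicate 2. In α4β7− CD22− eosinophils their estimates were −0.54 and −0.56 (adjusted p = 0.0193 and 0.0191), under the fold change required.

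Most other genes of the mitochondrial DNA had estimates between these and 0. For complex I, the CD22+ estimates over α4β7+ were −0.57 for mt-Nd4 (adjusted p = 0.00634), −0.48 for mt-Nd5 (0.0482), −0.46 for mt-Nd4l (0.0444), −0.36 for mt-Nd3 (0.0919), −0.35 for mt-Nd6 (0.199), and −0.30 for mt-Nd2 (0.17). None of these 6 reached a fold change of 1.5. In α4β7− CD22− eosinophils they ran from −0.52 for mt-Nd6 (adjusted p = 0.0671) to −0.15 for mt-Nd3 (adjusted p = 0.551). mt-Atp8 of complex V was estimated at −0.41 and −0.57 in the 2 subsets (adjusted p = 0.101 and 0.0177). mt-Nd4l overlaps mt-Nd4, and mt-Atp8 overlaps mt-Atp6, so that reads can be shared between neighbors.

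The genes mt-Co2, mt-Co3, and mt-Atp6 varied more widely in the deposited values. mt-Co2, a core subunit of complex IV, had 5568, 8308, 8426, and 3386 in the α4β7+ libraries, 4727, 8331, 8029, and 6790.5 in the α4β7− CD22− libraries, and 6378, 8814, 7932, and 9745 in the CD22+ libraries. These libraries overlapped, and the estimate was 0.43 ± 0.253 in CD22+ over α4β7+ eosinophils (adjusted p = 0.272), the highest of the 13. mt-Co3, also of complex IV, was estimated at −0.28 and mt-Atp6 of complex V at −0.36 in CD22+ eosinophils (adjusted p = 0.518 and 0.486). In α4β7− CD22− eosinophils these 2 genes were estimated at −0.52 and −0.61 (adjusted p = 0.215 and 0.240). Their standard errors were 0.259 and 0.32, against 0.133 to 0.179 for the other 10 genes.

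These 3 genes, and the end of mt-Co1, have near-identical copies on chromosome 1 that were counted as genes of their own. The annotated pseudogene Gm28661 (chr1:24614885-24615565, minus strand of GRCm38) has the same bases as mt-Co2 over all 681 bases aligned, Gm28437 (chr1:24613189-24613971) the same as mt-Co3 over 783, and Gm10925 (chr1:24613974-24614651) the same as mt-Atp6 over 678. Gm29216 (chr1:24615706-24616197) differs from mt-Co1 at 6 of 492 aligned bases, all within the first 13. The first 60 bases of mt-Co2 (chrM:7013-7072) stand for the identical pairs, and chrM:6381-6441 shows where Gm29216 joins mt-Co1, with differing bases in capitals. The sequences were read from the transcripts of the GENCODE annotation of GRCm38:
mt-Co2 and Gm28661: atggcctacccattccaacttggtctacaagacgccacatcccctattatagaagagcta
mt-Co1: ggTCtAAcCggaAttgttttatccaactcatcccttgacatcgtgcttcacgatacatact
Gm29216: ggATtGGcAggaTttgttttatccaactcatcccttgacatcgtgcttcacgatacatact

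Reads from a gene and from a copy with the same bases cannot be told apart, and the copies held many counts. The means of Gm28661 were 13582, 5816, and 3363 normalized counts in α4β7+, α4β7− CD22−, and CD22+ eosinophils, with ranges of 11892 to 16369, 2765 to 7053, and 1687 to 6119. Gm28437 averaged 9770.5, 5537, and 3760.3, Gm10925 averaged 15720.0, 14356, and 10873, and Gm29216 averaged 5577, 2465, and 2473. Copies of mt-Nd3, mt-Nd4, and mt-Nd4l on the same chromosome had at most 9.21 normalized counts in any library.

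After each gene was summed with its near-identical copies, a step chosen after the data were seen, mt-Co2 reversed. The sums were 18589.9, 20200.0, 21473, and 19755 in the α4β7+ libraries, 11419, 11096, 15082, and 13546 in the α4β7− CD22− libraries, and 8065, 10684, 14050.5, and 13519 in the CD22+ libraries. All 8 libraries of the later subsets then lay below the lowest α4β7+ library, and mt-Co2 was called lower in both, at −0.66 ± 0.147 (adjusted p = 0.00738) and −0.82 (adjusted p = 0.000893). mt-Co3 summed to 14467, 16101, 16091, and 14001 in the α4β7+ libraries, 8727, 7629.7, 10086, and 10163 in the α4β7− CD22− libraries, and 5608, 6518, 9459, and 10465 in the CD22+ libraries. It too was called lower, at −0.74 and −0.96 (adjusted p = 0.00657 and 0.000526), without overlap, and its change in CD22+ eosinophils was then the lowest of the 13.

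For mt-Atp6 the sums overlapped between the subsets, with estimates of −0.27 and −0.50 (adjusted p = 0.371 and 0.0647), in place of −0.61 and −0.36. The sum moved mt-Co1 little, to −0.67 and −0.85 (adjusted p = 0.0118 and 0.00165). With the copies included, 4 and 10 members were called lower in the comparisons with α4β7+ and none higher. In all, 1228 and 1826 genes were then called, higher or lower, against 1228 and 1829 without the copies, where 4.35% and 6.39% of all genes were called lower. Ndufb4c was counted within Ndufb4 in this fit and was no longer a member of its own. The mitochondrial median in CD22+ over α4β7+ eosinophils was −0.57 in place of −0.46.

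**Figure D4:**
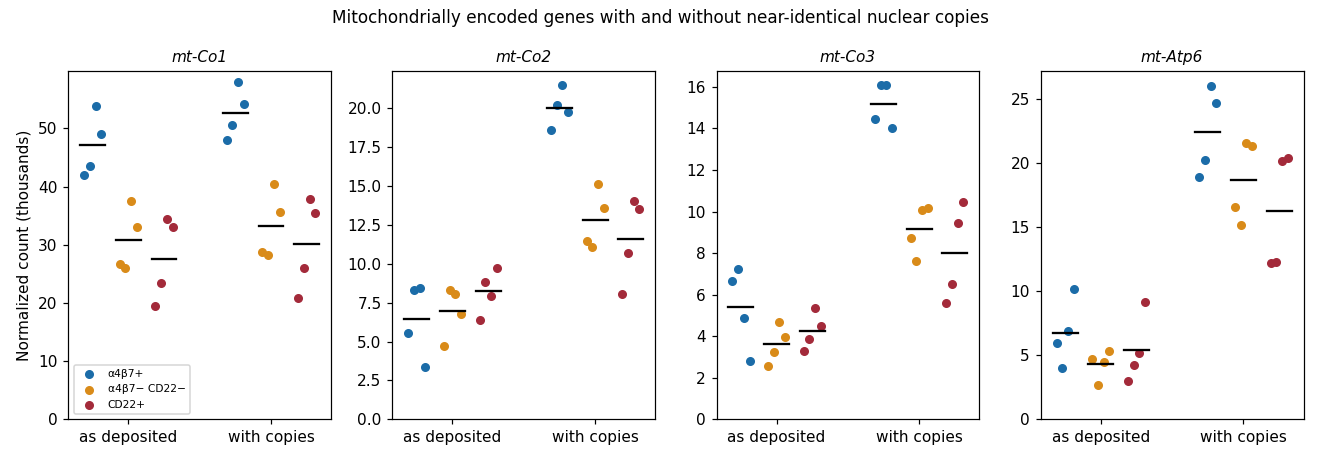
Normalized counts (axes in units of 1000) of mt-Co1, mt-Co2, mt-Co3, and mt-Atp6 in each library, as deposited (left) and summed with the near-identical nuclear copies (right), for α4β7+ (blue), α4β7− CD22− (orange), and CD22+ (red) eosinophils. Points are libraries and bars are means of 4. The deposited mt-Co2 values overlap between subsets, while its sums lie from 18590 to 21473 in α4β7+ and at most at 15082 in the other subsets.

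Summed over genes, the nuclear members differed by less than the mitochondrially encoded ones. The nuclear sums were 53404, 57160.1, 54596, and 50977 normalized counts in the α4β7+ libraries, 52257, 48314, 42056, and 49735 in the α4β7− CD22− libraries, and 43066, 37650.0, 46769, and 50119 in the CD22+ libraries, with overlap between the first 2 subsets. All 4 CD22+ sums were below the lowest α4β7+ sum. As a share of the library total the nuclear sums overlapped between all subsets, at 0.316% to 0.349%, 0.277% to 0.347%, and 0.255% to 0.343%. The mitochondrial sums ranged from 143268 to 170342, from 94677 to 131012, and from 78274 to 129806, and the α4β7+ libraries did not overlap with the others. The mitochondrial sums made up 0.847% to 1.08%, 0.617% to 0.864%, and 0.531% to 0.909% of the library totals. As shares, they thus overlapped between α4β7+ and both other subsets.

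The ratio of the mitochondrial to the nuclear sum had medians of 2.89, 2.19, and 2.54, the subsets in the same order, and the ranges of 2.60 to 3.12, 1.81 to 3.12, and 1.82 to 2.78 overlapped. With the copies counted, the mitochondrial sums ranged from 183009 to 217903, 119205 to 163394, and 92798 to 158435, and the ratio had medians of 3.71, 2.74, and 2.97, with ranges of 3.37 to 4.03, 2.32 to 3.89, and 2.15 to 3.39, still overlapping. Of the 4 α4β7− CD22− libraries, replicate 3 had the highest ratio and the lowest nuclear sum.

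**Figure D5:**
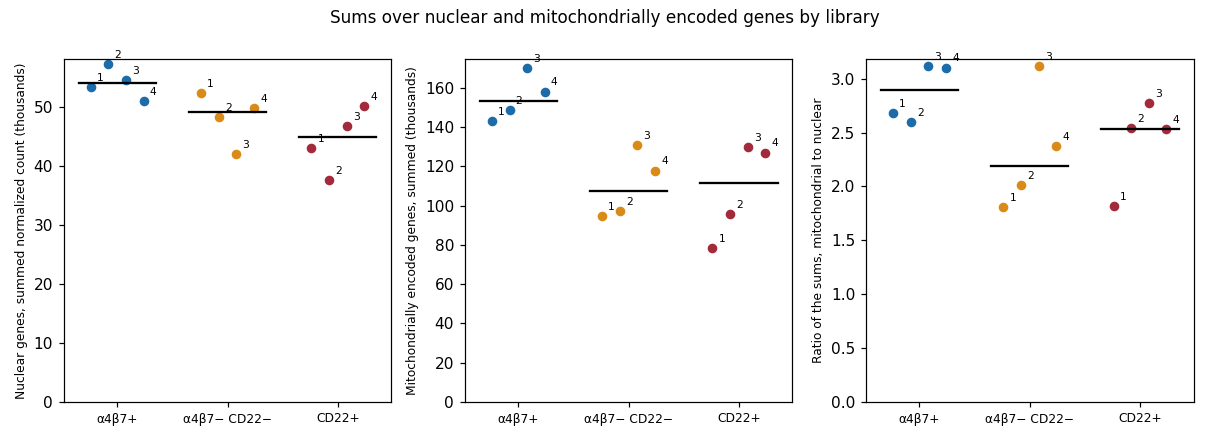
Summed normalized counts of the 85 nuclear members (left) and the 13 mitochondrially encoded members (middle), both in units of 1000, and the ratio of the sums (right), by library. Numbers are replicate numbers and bars are medians of 4 libraries. The mitochondrial sums of α4β7+ eosinophils (143268 to 170342) lie above all others, while the ratios overlap.

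Within a subset, members varied more closely with those of the same genome. Over the 12 libraries, after the subset means were taken out, pairs of nuclear members had a median correlation of 0.503 (3003 pairs) and pairs of mitochondrially encoded members 0.708 (78 pairs), or 0.862 without mt-Co2, mt-Co3, and mt-Atp6 (45 pairs). Pairs of 1 nuclear and 1 mitochondrially encoded member had a median correlation of 0.145 (1014 pairs). All pairs, within a genome or between the 2, share the libraries and their scaling, and these values are a description. Replicates 3 and 4 both exceeded replicates 1 and 2 for 9, 9, and 12 of the 13 mitochondrially encoded members in the order of the subsets, and for 8, 2, and 52 of the 78 nuclear members. In the α4β7− CD22− subset, the median deviation from the α4β7+ mean was −0.69, −0.65, −0.16, and −0.34 over the mitochondrially encoded members in replicates 1 to 4, and −0.06, −0.15, −0.37, and −0.13 over the nuclear members.

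Related genes outside the symbol rule, some of them subunits, gave a mixed picture. The lists were written with earlier results of these data known. For each list, the background is that 4.35% of all genes were called lower and 3.7% higher in α4β7− CD22− eosinophils, and 6.39% and 5.6% in CD22+ eosinophils. Of 48 assembly factors tested, none was called in α4β7− CD22− eosinophils (at an unadjusted p under 0.05, 3 higher and 4 lower, where 13.6% and 13.5% of all genes were), and in CD22+ eosinophils Tmem186, of complex I assembly, rose (0.62, adjusted p = 0.00907) and Uqcc2, of complex III assembly, fell (−0.70, adjusted p = 0.0228). Their medians over α4β7+ were 0.08 and 0.09, above those of the subunits. Of 23 electron carriers and subunits that the symbol rule did not match, 1 rose in α4β7− CD22− (Coq4), and in CD22+ eosinophils 2 rose and 1 fell. The ubiquinone synthesis genes Coq4 and Coq2 rose by 0.97 and 0.59 on the log2 scale (adjusted p = 0.00652 and 0.00174), and Etfb, of the electron transfer flavoprotein, fell by 0.77 (adjusted p = 0.000462).

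Of 19 tricarboxylic acid cycle genes, 1 fell in α4β7− CD22− and 3 in CD22+ eosinophils, where 4.35% and 6.39% of all genes were called lower, and none was called higher, with medians of −0.13 and −0.10. Mdh2, malate dehydrogenase, fell by 0.88 in CD22+ (adjusted p = 3.7e-08) and Suclg2 by 0.74 (adjusted p = 0.00168), and Idh3a fell in both subsets, by log2 values of −0.88 (adjusted p = 0.00485) and −0.80 (adjusted p = 0.00628). Of 16 biogenesis regulators, Myc and Pprc1, a coactivator of the PGC-1 family, fell in both subsets (in CD22+, −3.99 with adjusted p = 9.75e-08 and −1.19 with adjusted p = 0.00155), and Sirt3, a mitochondrial deacetylase, fell in CD22+ (−0.66, adjusted p = 0.0443). Of 29 genes of mitochondrial DNA transcription and RNA maintenance, Hsd17b10, a subunit of the mitochondrial RNase P, fell in both subsets (−0.67 and −0.83, adjusted p = 0.0297 and 0.00603), while their medians were −0.07 and 0.12.

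Of 33 import and carrier genes, 2 fell in α4β7− CD22− (Timm8a1 and Timm9, −1.11 and −0.88, adjusted p = 0.00988 and 0.0361) and, in CD22+ eosinophils, the inner membrane import genes Timm10b and Timm23 fell (−0.71 and −0.59, adjusted p = 0.00043 and 0.0049) and the dicarboxylate carrier gene Slc25a10 rose (0.76, adjusted p = 0.0342). Of 16 fatty acid oxidation genes, Acaa2 fell in CD22+ (−0.63, adjusted p = 0.002), and none was called in α4β7− CD22−, where at an unadjusted p under 0.05 5 were lower and 2 higher (13.5% and 13.6% of all genes). All adjusted p-values are from limma, with 4 libraries in each subset.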

How the data were processed

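RNA from 12 libraries, 4 per subset and each from 2 pooled mice, was examined. The deposited values are normalized counts per gene (a signal scaled between libraries, not whole and not per length). Per the labels and the study's methods, the authors trimmed reads with Trimmomatic 0.39, quantified them with kallisto 0.46.1 on the mouse genome mm10 (GRCm38), and normalized with DESeq2 1.38.2, so that reads shared by near-identical genes are divided between them by estimation. The steps between low values put 1 read at about 0.845 to 1.155 normalized counts and depth at about 1.39e+07 to 1.75e+07 reads per library. As 34.3% to 67.3% of low values lay within 0.05 reads of a whole number, counts were not recovered and no counting interval is given.

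The log2(value + 1) of genes with an average above 10 was fitted with limma 3.58.1 (R 4.3.3) over all 3 subsets with a variance trend, and p-values were adjusted over all genes tested (Benjamini-Hochberg). Calls needed an adjusted p no higher than 0.05 together with a 1.5-fold difference. Fold changes are on the log2(value + 1) scale, which understates low genes. The fit was tested on simulated data. Copies were found with BLAST 2.17.0 among the annotated transcripts, as matches of at least 99% identity. Lengths are of 1 annotated transcript per gene.

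The members and lists were chosen with earlier results of these data known. Named were all mitochondrially encoded members, called members (at most 10 in each direction), in each complex the nuclear member highest per kilobase and those with the lowest and highest estimate in CD22+ over α4β7+, tissue isoforms, and called genes of related lists (at most 3 in each direction). Alternatives changed the pseudocount, filter, scaling, variance trend, samples in the model, replicate block, threshold, and library set. Same-numbered libraries deviated together between CD22+ and α4β7− CD22− eosinophils, where all 4 pairs correlated at 0.135 or more over all genes tested. This hint comes from the data, since the labels do not say what a number shares, and the block changed no member's call there. Columns of per-sample values left unused numbered 0.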

Additional observations from a re-analysis of the deposited data

Results flagged for a closer look

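Among the 98 members and their sums, 12 of 303 groups of 4 libraries held 1 library whose gap to the nearest other, as a share of the range of the group, exceeded Dixon's 95% critical value, which happens by chance in about 1 in 20 groups. In α4β7+ replicate 4, Cox6b1 had 597 normalized counts against 733 to 737 in the other α4β7+ libraries, Uqcrb had 568 against 678 to 689.9, and Ndufa13 had 912 against 991 to 1005. In α4β7− CD22− replicate 3, Cox8a had 689.6 against 851 to 882 in the other libraries of the subset, Ndufa13 had 645 against 814 to 841, and Ndufs5 had 269 against 403 to 409.8. Ndufs1 had 867 in α4β7− CD22− replicate 4, against 881.5 to 884. Cox6b2 had 7.80 in CD22+ replicate 3, against 2.85 to 3.67. The other cases were low genes with 1 library above 0, namely Cox7b2 with 0.920 in α4β7+ replicate 3, Cox8b with 1.10 and Cox8c with 4.39 in α4β7+ replicate 1, and Ndufa4l2 with 0.466 in α4β7− CD22− replicate 3.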

How the results depend on the processing

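The medians over α4β7+ stayed below 0 under every alternative. They ran from −0.22 to −0.14 (nuclear) and −0.60 to −0.38 (mitochondrially encoded) in α4β7− CD22− and from −0.38 to −0.21 and −0.60 to −0.34 in CD22+ eosinophils with 1 library left out. The nuclear medians were −0.09 and −0.16 and the mitochondrial ones −0.42 and −0.30 after rescaling by the total without mitochondrially encoded genes, and the mitochondrial ones −0.35 and −0.29 with quantile normalization. The counts of called members were less stable. In α4β7− CD22− over α4β7+ the count of 2 became 1 with a pseudocount of 10, 75th percentile rescaling, quantile normalization, or no variance trend, 0 with the total without mitochondrially encoded genes, 4 with copies summed, 10 on the adjusted p alone, and 0 to 6 with 1 library left out. In CD22+ over α4β7+ the count of 8 became 4 with quantile normalization, 2 with the total without mitochondrially encoded genes, and 30 on the adjusted p alone. It became 4 to 14 with 1 library left out. Of all genes, 1116 to 1227 and 1656 to 1825 were called in the 2 comparisons with 1 library left out, and 1216 and 1810 with quantile normalization. With the total without mitochondrially encoded genes, 1306 and 2188 were called. On the adjusted p alone, 7.73% and 11.1% of all genes were lower and 7.13% and 10% higher. The estimate of mt-Co2 reversed with its copy summed, to −0.66 and −0.82. No alternative gave a call between CD22+ and α4β7− CD22− eosinophils. Apart from the copies, which by construction return the shared reads to 1 gene, the cause was not tested.

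The labels number the libraries 1 to 4 in each subset without saying what a number shares. Over all genes tested, deviations of same-numbered libraries had mean correlations of 0.087, 0.033, and 0.169 in the 3 comparisons (pairs from 0.043 to 0.137, from −0.0586 to 0.182, and from 0.135 to 0.203), and each library correlated best with its own number in 2, 2, and 4 of 4 pairs. With the replicate block, 3 members (mt-Atp6 in addition), 8, and 0 were called, among 1254, 1843, and 100 genes called in all. Isoforms at a few normalized counts rest on about as many reads, which limits what can be compared.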

Other observations

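Short genes other than the members also lay below 0. In CD22+ over α4β7+ eosinophils, the 988 other protein coding genes with a transcript under 1000 bases had a median log2 fold change of −0.19, with 65.4% of estimates below 0, against 0.03 and 47.0% for the 12974 longer ones. The 51 nuclear members under 1000 bases had a median of −0.31 and the 26 longer ones −0.35. In α4β7− CD22− over α4β7+ eosinophils these medians were −0.12, 0.01, −0.17, and −0.21. The part of transcript length in the changes of the members was not tested.

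Some nuclear members also have near-identical copies with counts of their own. Atp5g2, which encodes the c subunit of the ATP synthase, has the same 441 bases as the transcribed pseudogene Gm10175, whose means were 250.5, 194, and 129 normalized counts in the order of the subsets. As deposited, Atp5g2 was estimated at −0.64 and 0.09 over α4β7+ (limma, adjusted p = 0.253 and 0.893). Summed with its copies it was estimated at −0.46 and −0.52 (adjusted p = 0.0270 and 0.00986), past the threshold on p and short of the 1.5-fold difference. The pseudogene Gm10221 of Atp5l ranged from 153 to 386 over all libraries.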
